A study of Mus musculus with 12 samples.

Results

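The genes described here are 10 mouse genes of the RGS family, the regulators of G protein signaling: Rgs2, Rgs3, Rgs4, Rgs5, Rgs7, Rgs8, Rgs10, Rgs16, Rgs17 and Rgs20. They were chosen by name out of 23238 gene symbols, in part because Rgs20 was higher after injury, so that the SNI against sham values below describe the genes and are given without p-values. Counts came from 12 libraries of dorsal root ganglia, the clusters of sensory neuron cell bodies beside the spinal cord, taken at lumbar levels 3 to 5. All mice were C57BL/6 and 8 weeks old, with no other allele or agent named in the labels. The 4 groups were females with sciatic nerve injury (Female SNI), females with a sham operation (Female sham), males with the injury (Male SNI) and males with the sham operation (Male sham), with 3 libraries each. The labels name neither the form of the injury nor its time before dissection. They also do not say whether the libraries of a group came from separate mice, so the spread behind each p-value is that among these libraries and could be technical.

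A G protein is switched on when a receptor loads its alpha subunit with GTP, and it stays on until the alpha subunit hydrolyses that GTP. RGS proteins bind the active alpha subunit and speed the hydrolysis, so they shorten signals from opioid, adrenergic, muscarinic and many other receptors. The family is divided by sequence: R4 proteins (here Rgs2, Rgs3, Rgs4, Rgs5, Rgs8 and Rgs16) are mostly small and act on Gi, Go or Gq class subunits, the R7 protein Rgs7 works in a complex with the beta subunit Gnb5, the R12 family includes the small protein Rgs10, and the RZ proteins Rgs17 and Rgs20 carry a string of cysteines and act on Gz as well as Gi class subunits.

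Totals lay between 12476606 and 15520746 counts per library, so 3 counts in 1 library correspond to 0.193 to 0.240 CPM, the usual count scaled to library size. Atf3, a transcription factor induced by axon damage, was at 275 to 361 CPM in the SNI libraries and at 43.6 to 56.7 CPM in the sham libraries. The ganglion label was checked with 12 sensory neuron markers, and their summed level was 13862 to 19971 CPM. Male SNI replicate 2 and Female sham replicate 2 stood apart on the first principal component of log2 CPM, with scores of 75.5 and 38.0 against -27.0 to 2.67 in the others. Male SNI replicate 1 held 1454 CPM of 8 skeletal muscle markers, against 6.60 to 67.6 CPM in the other libraries.

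All 10 genes passed the filter on low counts. Levels are CPM scaled by TMM factors, and log2 changes come with the standard error (SE) of 1 edgeR quasi-likelihood model of all 12 libraries. At a Benjamini-Hochberg adjusted p of 0.05, Rgs20 was on the higher side and Rgs10 and Rgs3 on the lower side for injury averaged over the sexes, 1 and 2 of 10 genes, where 3.78% and 2.73% of 15036 tested genes were called higher and lower. In either direction 6.52% of all genes were called. In females 0 of the 10 were called higher and 2 lower (Rgs3 and Rgs10), where 2.89% of all genes were called, 1.60% higher and 1.29% lower. In males 0 were called higher and 1 lower (Rgs10), where 2.13% were called, 1.65% higher and 0.486% lower. The counts within 1 sex change with the processing: Rgs3 in females was called in 9 of 21 alternatives, Rgs10 in 9 in females and 14 in males, and Rgs20 in males in 5. These contrasts chose the set, so nothing is read from the counts. The median log2 change of the 10 genes was -0.17, and that of all tested genes was 0.0031.

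Promoter sequence is shown for both genes on the lower side, and for Rgs4 and Rgs17 because a searched motif lies in theirs. Promoter entries were found for 9 of the 10 genes (12 start sites), and Rgs20 was the gene with no entry. The libraries read 3′ ends, so they do not measure promoter use. Each line holds the 250 bases before a RefSeq start site on the gene's strand (GRCm38.p6), with matches on either strand to TATAAA or TGANTCA, the core of AP-1 sites, in capitals.
Rgs10, chr7:128418173-128418422, minus strand: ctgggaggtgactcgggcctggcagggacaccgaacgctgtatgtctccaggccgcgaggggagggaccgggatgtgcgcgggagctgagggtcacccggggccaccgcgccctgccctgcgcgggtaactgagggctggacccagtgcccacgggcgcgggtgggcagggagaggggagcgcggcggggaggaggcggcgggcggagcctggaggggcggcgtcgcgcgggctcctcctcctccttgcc
Rgs3, the first of 2 start sites, chr4:62559597-62559846, plus strand: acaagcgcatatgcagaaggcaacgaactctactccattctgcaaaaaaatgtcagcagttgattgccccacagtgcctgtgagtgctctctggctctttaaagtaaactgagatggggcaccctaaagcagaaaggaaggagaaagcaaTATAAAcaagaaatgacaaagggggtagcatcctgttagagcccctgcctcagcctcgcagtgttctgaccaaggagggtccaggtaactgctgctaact
Rgs4, chr1:169747643-169747892, minus strand: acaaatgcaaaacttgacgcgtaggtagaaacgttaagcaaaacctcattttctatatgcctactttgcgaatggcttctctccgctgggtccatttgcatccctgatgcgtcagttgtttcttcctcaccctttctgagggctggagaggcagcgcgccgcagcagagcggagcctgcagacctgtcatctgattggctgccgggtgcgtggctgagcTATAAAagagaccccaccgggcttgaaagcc
Rgs17, chr10:5922401-5922650, minus strand: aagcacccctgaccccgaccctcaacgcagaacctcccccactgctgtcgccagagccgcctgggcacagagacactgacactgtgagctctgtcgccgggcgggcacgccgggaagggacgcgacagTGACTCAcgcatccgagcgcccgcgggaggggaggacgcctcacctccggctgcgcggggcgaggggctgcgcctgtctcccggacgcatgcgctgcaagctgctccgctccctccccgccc

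TATAAA was found in 3 of the 12 windows, both of Rgs3 and that of Rgs4, and in 12.4% of 32851 windows of all genes. In Rgs4 it began 31 bases before the start site, and in the window of Rgs3 shown above it began 100 bases before it. TGANTCA was found in the window of Rgs17, 122 bases before its start, and in 6.75% of all windows. TGACGTCA, the cyclic AMP response element, was in none of the 12 windows and in 1.55% of all. The Rgs10 window held 27 CG pairs, more than 91.4% of windows, and the Rgs3 window shown held 3. The Rgs10 window lies inside the annotated gene, which reaches 128418758 in GENCODE and 128419506 in RefSeq. An annotated start of Rgs10 thus lies upstream of the window shown. The motifs do not overlap one another in these windows, and a match is a description of letters only.

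Among the RZ genes, Rgs20 (chromosome 1, 4909576 to 5070285 in GENCODE vM21, GRCm38, minus strand) was higher after injury in both sexes. In the edgeR fit of all libraries it was called for the average over the sexes but in neither sex alone, and Rgs17 was not called. Rgs20 was at 7.87, 11.4 and 7.12 CPM in Female SNI replicates 1 to 3 and at 3.90, 1.82 and 5.93 CPM in Female sham replicates 1 to 3. In the males it was at 6.91, 5.68 and 11.6 CPM after SNI and at 2.75, 2.98 and 2.48 CPM after sham, in the same order. Within each sex every SNI library lay above every sham library, which held for 3.67% of all tested genes in that direction. Across the sexes the groups overlapped, since Male SNI replicate 2 lay below Female sham replicate 3, and Rgs20 was not among the 2.79% of genes with all 6 SNI libraries above all 6 sham libraries. The log2 change averaged over the sexes was 1.37 ± 0.28 (SE), a 2.58-fold difference, with 1.18 ± 0.40 in females and 1.56 ± 0.41 in males. The counts behind it were small, between 24 and 169 per library.

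Exons of Rgs20 overlap those of Atp6v1h, a proton pump subunit gene on the opposite strand, over 127 bases, and those of Gm17101 over 125 bases. Both overlaps lie at the far end of the gene from its 3′ end, 160442 and 153484 genomic bases away, and reads of a 3′ kit come mostly from the 3′ end. Rgs17 (chromosome 10, 5825663 to 5922400, minus strand) was at 92.5 ± 6.10 and 79.4 ± 8.14 CPM in Female SNI and Female sham libraries (SD, n = 3) with 88.1 ± 13.5 and 85.8 ± 4.10 CPM in Male SNI and Male sham libraries. Its log2 change averaged over the sexes was 0.13 ± 0.10 (SE), and its SNI and sham libraries overlapped in both sexes.

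**Figure D1:**
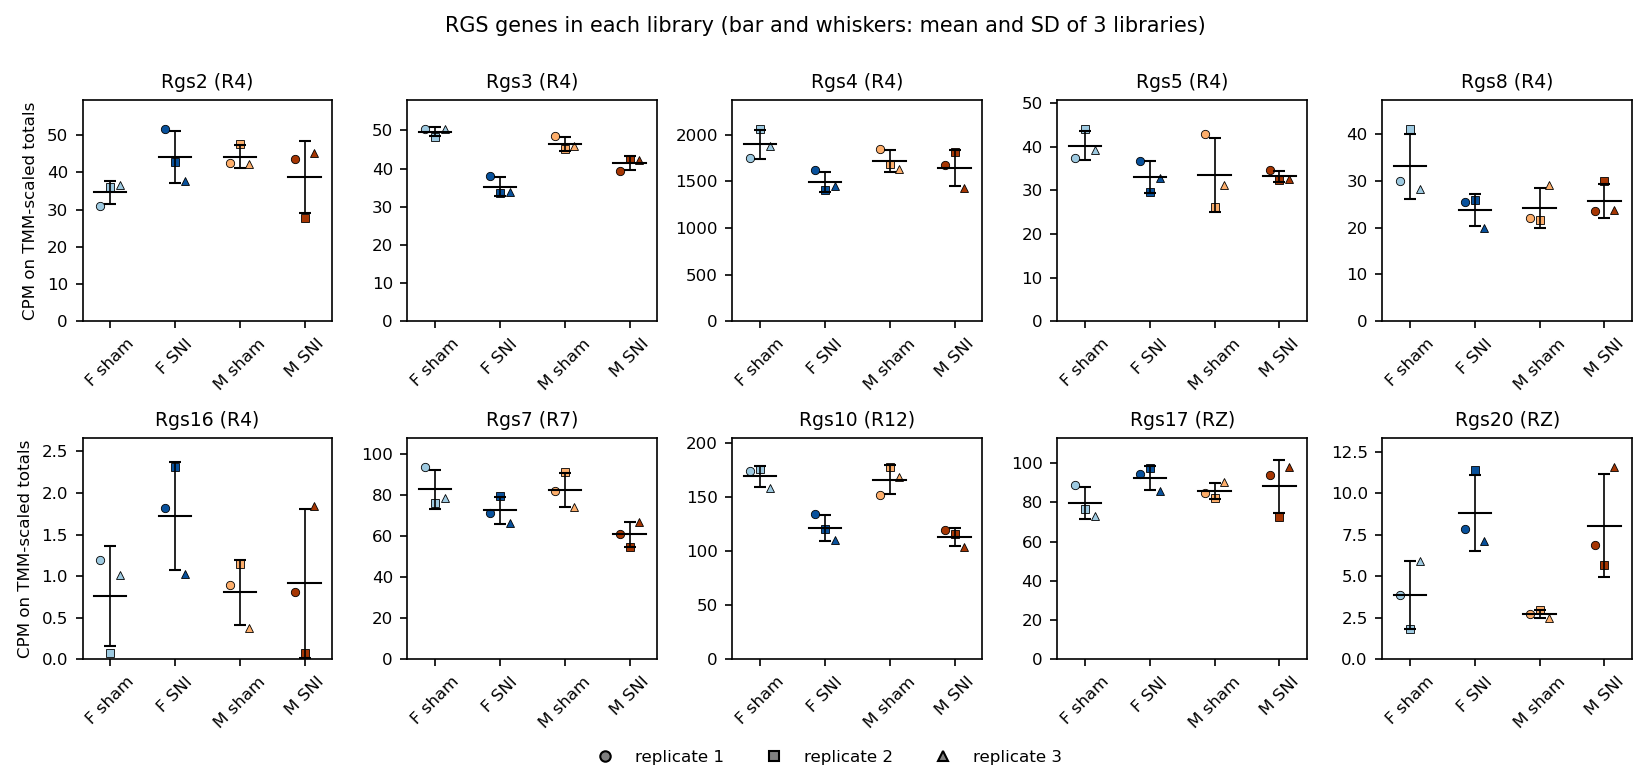
Each panel shows 1 RGS gene with its subfamily: the vertical axis is CPM on TMM-scaled totals from 0, and the horizontal axis holds the 4 groups (F female, M male), with 1 point per library, a bar at the mean and whiskers of 1 SD (n = 3). Rgs20 lies at 5.68 to 11.6 CPM in SNI and 1.82 to 5.93 CPM in sham libraries, and Rgs10 at 104 to 135 CPM in SNI and 152 to 178 CPM in sham libraries.

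Rgs10 (chromosome 7, 128373621 to 128418758, minus strand), the R12 protein that is expressed in neurons and in microglia and macrophages, was lower after injury. It was at 135, 121 and 111 CPM in Female SNI replicates 1 to 3 and at 174, 176 and 158 CPM in Female sham replicates 1 to 3. In the males it was at 120, 116 and 104 CPM after SNI and at 152, 178 and 169 CPM after sham. All 6 SNI libraries lay below all 6 sham libraries, which held for 2.04% of tested genes, while 2.82% were lower without overlap within each sex. The log2 change was -0.51 ± 0.08 (SE), a ratio of 0.700, with -0.47 ± 0.12 in females and -0.55 ± 0.12 in males.

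Markers of other cells moved with the injury too. Of 17 macrophage markers 14 rose and none fell at the same threshold, with a median log2 change of 1.17, and their summed level was 148 to 229 CPM in sham and 331 to 521 CPM in SNI libraries, with none of the 17 at 0 throughout. Csf1r, the receptor for the macrophage growth factor, was at 1.28 ± 0.17 (SE), and the complement gene C1qb at 1.34 ± 0.23. Among the 12 sensory neuron markers there were 6 that fell, such as the itch and pain receptor gene Mrgprd at -0.79 ± 0.15, and 0 that rose. Their median was -0.33, with summed levels of 16389 to 19971 CPM in sham and 13862 to 18013 CPM in SNI libraries. Of the 8 skeletal muscle markers none passed, although their median log2 change was 2.73, and Male SNI replicate 1 held 1454 CPM of them, as above. Of the endothelial, Schwann cell and fibroblast markers none passed, nor did any of the 4 lymphocyte markers that could be tested out of 11, and of the satellite glia markers only Glul did, at 0.55 ± 0.07. In bulk ganglia, fewer cells of a type and less RNA per cell cannot be told apart, and the part of either shift in the level of Rgs10 or of the other RGS genes was not tested.

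Of the R4 genes, Rgs3 was lower after injury, and the other 5 were not called in the fit of all libraries. Rgs3 (chromosome 4, 62559847 to 62704001, plus strand), which also has long forms with a PDZ domain, was at 38.2, 33.7 and 33.9 CPM in Female SNI replicates 1 to 3 and at 50.3, 48.3 and 50.4 CPM in Female sham replicates 1 to 3. In the males it was at 39.3, 42.6 and 42.2 CPM after SNI and at 48.6, 45.1 and 45.9 CPM after sham. Its SNI libraries all lay below its sham libraries, as for Rgs10, and the gap was narrower in the males. The log2 change was -0.33 ± 0.09 (SE) averaged over the sexes, -0.49 ± 0.12 in females and -0.17 ± 0.12 in males. Of the fits that left out 1 library, Rgs3 passed the threshold only in those without Male SNI replicate 2 or 3. Its transcripts share 11.4% of their runs of 50 bases with Gm5763, so reads from there could be assigned to either gene.

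Rgs4 (chromosome 1, 169741477 to 169747642), a regulator of Gi and Gq signals that is abundant in neurons, was at 1494 ± 112 and 1899 ± 158 CPM in Female SNI and Female sham libraries and at 1641 ± 194 and 1723 ± 116 CPM in Male SNI and Male sham libraries (SD, n = 3). The female groups did not overlap, and the male groups did. How many of all genes separate within only 1 sex was not counted, so nothing is read from such cases here or below. Its log2 change was -0.21 ± 0.09 (SE), which passed the threshold without Male SNI replicate 2 at -0.24, where 11.5% of all genes were called. It also passed with limma-voom, where 13.4% were called, against 6.52% in the edgeR fit of all libraries. Rgs5 (chromosome 1, 169655501 to 169695813) is best known from pericytes and vascular smooth muscle. It was at 29.5 to 36.7 CPM in SNI libraries and at 26.2 to 44.0 CPM in sham libraries, a change of -0.15 ± 0.13, and the groups overlapped in the males but not in the females. Without Male sham replicate 1 the change of Rgs5 was -0.04, and without Male sham replicate 2 it was -0.22. None of 13 markers of mural cells, the class to which pericytes belong, passed the threshold, and the summed level of these markers was 115 to 183 CPM in sham and 145 to 191 CPM in SNI libraries.

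Rgs2, which prefers Gq class subunits, was at 44.0 ± 7.03 and 34.7 ± 3.10 CPM in Female SNI and Female sham libraries and at 38.8 ± 9.68 and 44.2 ± 3.04 CPM in Male SNI and Male sham libraries. The female groups did not overlap and the male groups did, which again has no share over all genes beside it. The log2 change was 0.35 ± 0.19 (SE) in females and -0.19 ± 0.19 in males, and that in males was 0.01 without Male SNI replicate 2. Rgs8, known from the Purkinje cells of the cerebellum and for speeding potassium channel responses, was at 23.8 ± 3.35 and 33.0 ± 6.94 CPM in Female SNI and Female sham libraries and at 25.7 ± 3.62 and 24.2 ± 4.21 CPM in Male SNI and Male sham libraries. Its change was -0.19 ± 0.14, and the groups overlapped in the males only. Rgs16 was near the limit of detection, with 1 to 34 counts per library. Its 2 lowest values, 1 count each, came from Male SNI replicate 2 and Female sham replicate 2, the libraries that stood apart, and its change was 0.68 ± 0.67. Without Male SNI replicate 3 that change was 0.16, and without Male SNI replicate 2 it was 0.95. Exons of Rgs16 overlap those of Gm28513 on the opposite strand over 236 bases, 1599 genomic bases from the 3′ end of Rgs16. Those of Rgs8 overlap Gm29529 over 70 bases, 9356 genomic bases from the 3′ end of Rgs8. Reads there cannot be told apart unless strand was used in counting, though reads of a 3′ kit come mostly from the 3′ end.

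**Figure D2:**
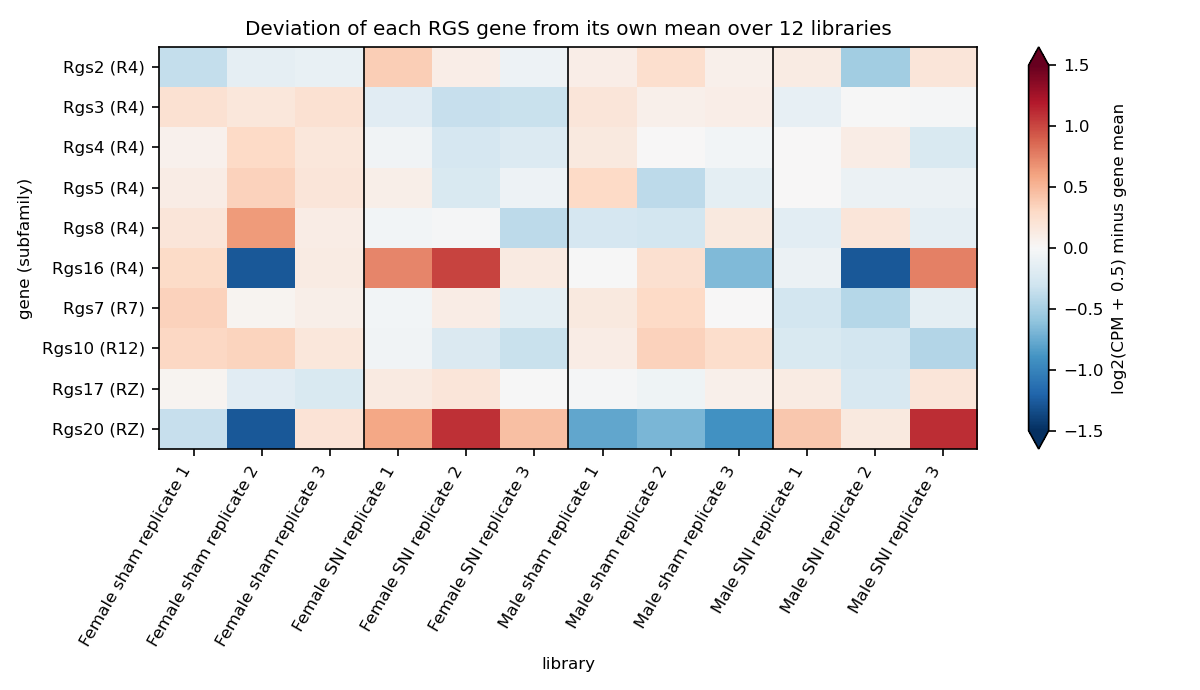
Rows are the 10 RGS genes and columns the 12 libraries in their 4 groups; colour gives log2(CPM + 0.5) minus the gene's mean over the 12 libraries, red above and blue below, with arrows on the scale for values past its ends. Rgs20 and Rgs16 have the strongest colours. Female sham replicate 2 is the lowest library for Rgs20, and it and Male SNI replicate 2 are the lowest for Rgs16. Rgs10 and Rgs3 are above their mean in all sham libraries.

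The R7 gene Rgs7 (chromosome 1, 175059087 to 175492500, minus strand) was at 72.7 ± 6.63 and 82.9 ± 9.50 CPM in Female SNI and Female sham libraries and at 60.9 ± 6.02 and 82.6 ± 8.46 CPM in Male SNI and Male sham libraries. The male groups did not overlap, and the female groups did, again without a share over all genes to set it against. Its log2 change was -0.31 ± 0.10 (SE), which did not pass in the edgeR fit of all libraries, where 6.52% of all genes were called. It passed with limma-voom and without both libraries that stood apart, at -0.30, where 13.4% and 12.1% of all genes were called.

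Whether the response differed between the sexes was not used to choose the genes and was tested. None of the 10 genes passed for the interaction of sex and injury, coded as the male change less the female one, and none of the 15036 genes did (0.00%), with edgeR, DESeq2 or limma-voom. At an unadjusted edgeR p below 0.05 there were 0 of the 10 and 1100 of all 15036 genes, and nothing is read from 0 among 10. The estimates were -0.97 (-3.86 to 1.92) for the scarce Rgs16, 0.56 for Rgs8 (95% interval -0.04 to 1.17) and -0.53 for Rgs2 (-1.10 to 0.04), the last pair with an edgeR adjusted p of 0.647. For Rgs3 the estimate was 0.32 (-0.05 to 0.70), for Rgs4 0.27 (-0.09 to 0.64) and for Rgs5 0.28 (-0.26 to 0.81). For Rgs7 and Rgs17 it was -0.25 (-0.66 to 0.17) and -0.18 (-0.59 to 0.23). Rgs10, at -0.08, had an interval of -0.44 to 0.28, and Rgs20, at 0.38, a wide one of -0.82 to 1.59. The intervals include differences of both signs, so the sexes are not shown to respond alike.

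**Figure D3:**
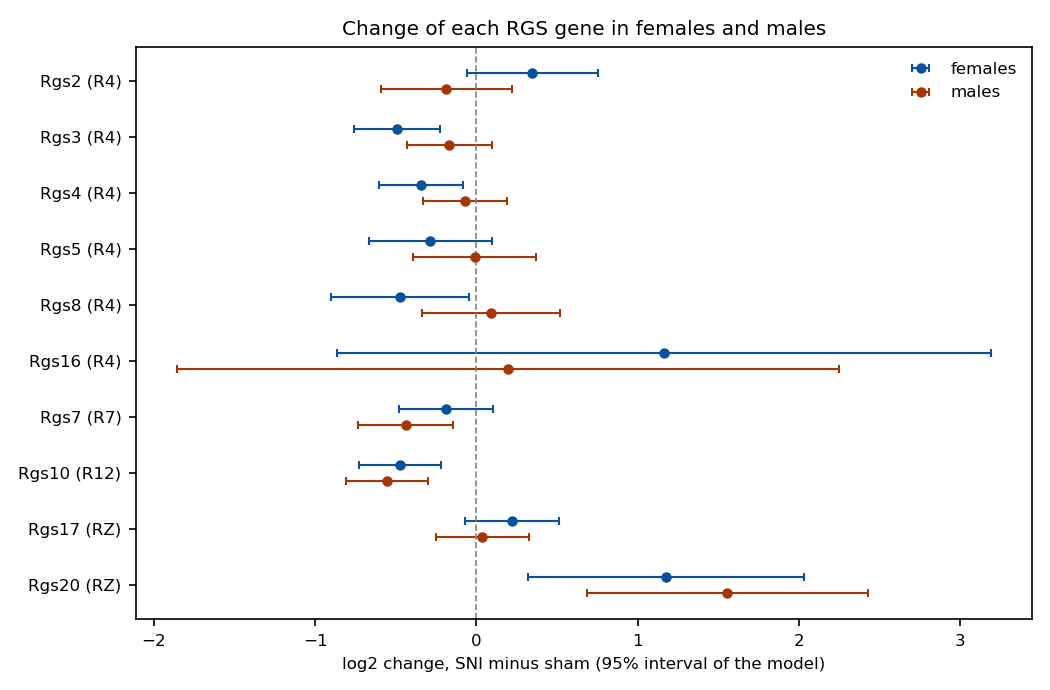
Points are the log2 change from sham to SNI of each RGS gene in females (blue) and males (brown) with the 95% interval of the edgeR model, and the dashed line marks no change. Rgs20 lies to the right in both sexes (1.18 and 1.56) and Rgs10 to the left in both (-0.47 and -0.55), and the intervals of the sexes overlap for every gene.

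Males and females were also compared within each operation. In sham libraries none of the 10 genes passed, where 0.0399% of all genes did (0.0266% higher and 0.0133% lower in males). At an unadjusted edgeR p below 0.05 there was 1 of the 10, beside 688 of all 15036 tested genes. That gene was Rgs8, lower in Male sham than in Female sham libraries by a log2 difference of -0.45 ± 0.20 (SE; edgeR adjusted p = 0.938). Nothing is read from 1 such gene among 10. After SNI none passed, where again 0.0399% of all genes did, with the same split by direction. None of the 10 had an unadjusted edgeR p below 0.05, beside 654 of all tested genes. The differences of males minus females after SNI lay between -0.90, for the scarce Rgs16, and 0.23, for Rgs3, with edgeR adjusted p of 0.881 or more. DESeq2 and limma-voom called none of the 10 genes in either comparison.

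The other genes of the pathway were taken whole from lists of family and partner names and tested for injury averaged over the sexes. Over all 15036 tested genes 6.52% were called, 3.78% higher and 2.73% lower, and nothing is read from the counts in these lists. The lists were chosen with earlier results of these data known. Apart from Gnb5 and Gnaz, genes were named because they were called or had the largest mean CPM, so the values of named genes are description. Of 5 R7 partner genes 1 fell and none rose (median log2 change -0.03). Rgs7bp, which anchors R7 complexes to the membrane, was at 750, 748 and 770 CPM in Female SNI replicates 1 to 3 and at 1015, 1323 and 1146 CPM in Female sham replicates 1 to 3. In the males it was at 710, 1114 and 765 CPM after SNI and at 1185, 1151 and 1215 CPM after sham. The groups did not overlap within either sex, and Male SNI replicate 2 lay near the sham levels. Rgs7bp fell, with a log2 change of -0.54 ± 0.11 (SE; edgeR adjusted p = 0.00888). Gnb5, the beta subunit that R7 proteins need for their stability and which was singled out after its values were seen, had levels of 69.1 ± 2.56 and 67.4 ± 6.46 CPM in the sham and SNI libraries of females and of 70.1 ± 3.52 and 68.9 ± 8.29 CPM in those of males, a change of -0.03 ± 0.09.

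Of 12 tested genes of G protein alpha subunits 1 fell and none rose (median 0.05). Gnao1, which encodes the Go subunit that is abundant in neurons and a main substrate of R7 proteins, fell, with a log2 change of -0.34 ± 0.07 (SE; edgeR adjusted p = 0.00888). Female sham libraries held 1634 ± 23.1 CPM and Female SNI libraries 1221 ± 76.9 CPM, against 1577 ± 39.1 and 1325 ± 43.1 CPM in Male sham and Male SNI libraries (SD, n = 3). All of its SNI libraries, at 1157 to 1374 CPM, lay below all of its sham libraries, at 1547 to 1655 CPM. Gnas, the stimulatory subunit gene with the largest mean CPM of the list, was at -0.15 ± 0.07 (adjusted p = 0.307), and its exons overlap those of Gm20721 near its 3′ end, so its value is uncertain. Gnaz, the Gz substrate of the RZ proteins and likewise singled out after its values were seen, was at 0.22 ± 0.17 (adjusted p = 0.569), with 273 CPM in Male SNI replicate 2 and 107 to 168 CPM elsewhere. Without Male SNI replicate 2 its change was -0.0024.

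Of 15 beta and gamma subunit genes 1 fell and none rose (median 0.07). Gng8, a gamma subunit, fell, with a log2 change of -0.81 ± 0.16 (SE; edgeR adjusted p = 0.0075). Female sham libraries held 21.9 ± 5.81 CPM and Female SNI libraries 10.2 ± 1.28 CPM, against 21.0 ± 2.59 and 14.6 ± 2.99 CPM in Male sham and Male SNI libraries. Its SNI and sham libraries did not overlap within either sex. Gnb1, with the largest mean CPM of the list, was at -0.01 ± 0.08. Of 14 genes whose proteins have an RGS-like domain outside the RGS-named set, 1 rose and none fell (median -0.10). Grk6, a kinase that desensitises receptors, rose by 0.57 ± 0.14 (SE; edgeR adjusted p = 0.0293). Its female groups overlapped, at 76.8 ± 10.2 CPM in sham and 93.0 ± 18.1 CPM in SNI libraries, and its male groups, at 59.0 ± 7.12 and 108 ± 32.4 CPM, did not. The call was lost when any 1 of 6 libraries was left out (replicates 2 and 3 of Female SNI, and replicates 1 and 3 of each sham group), and the change was 0.44 or more in all alternatives. Adrbk1, the kinase also called Grk2, with the largest mean CPM of that list, was at -0.27 ± 0.10. It passed, as lower, with limma-voom, without Male SNI replicate 2 (-0.37) and without both libraries that stood apart. In those fits 13.4%, 11.5% and 12.1% of all genes were called, in that order.

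The remaining lists held no gene that passed with edgeR. None of 7 tested other Rgs-named genes did (median 0.07), among them Rgs12 at 0.36 ± 0.20. None of 6 other G protein regulators did (median 0.05), and Ric8, a chaperone of alpha subunits, was at 0.19 ± 0.10, with exons that overlap those of Sirt3 near its 3′ end. None of 14 effector genes did (median -0.08), and the phospholipase gene Plcb3 was at -0.32 ± 0.10. Plcb3 passed, as lower, with DESeq2, limma-voom, without Male SNI replicate 2 and without both libraries that stood apart. In those fits 9.21%, 13.4%, 11.5% and 12.1% of all genes were called, in that order.

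**Figure D4:**
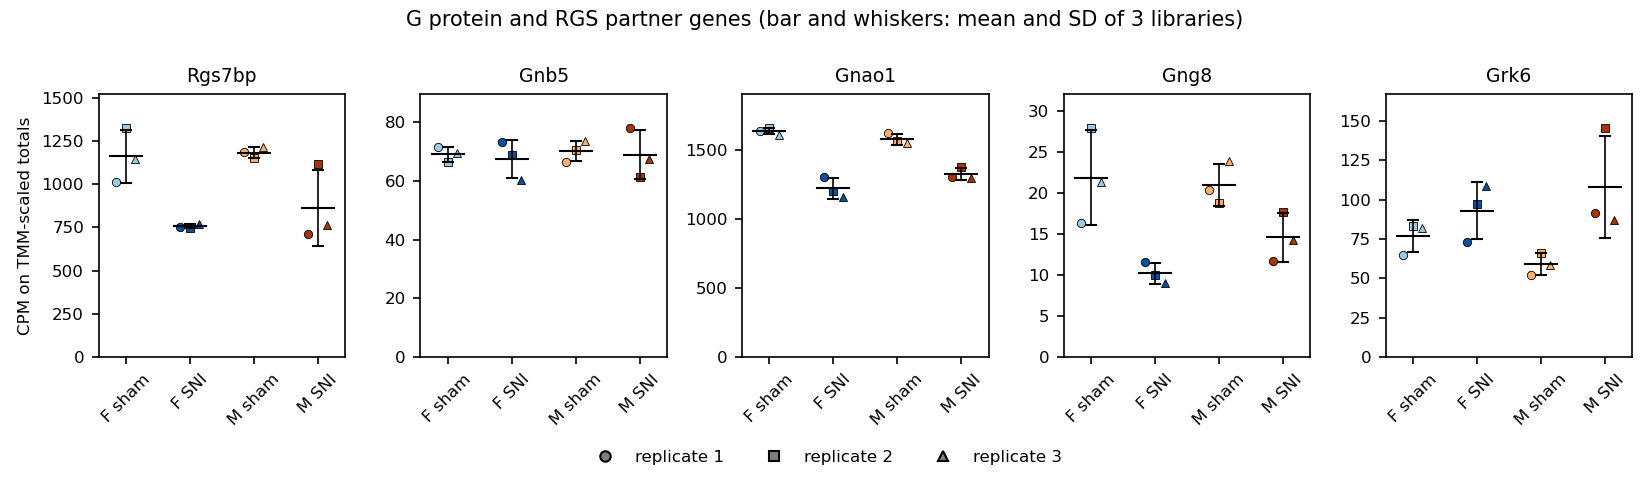
Each panel shows 1 gene that encodes a partner of RGS proteins, a G protein subunit or a receptor kinase: the vertical axis is CPM on TMM-scaled totals from 0 and the horizontal axis the 4 groups (F female, M male), with 1 point per library, a bar at the mean and whiskers of 1 SD (n = 3). Gnao1 lies at 1157 to 1374 CPM in SNI and 1547 to 1655 CPM in sham libraries. Male SNI replicate 2 is the highest SNI library for Rgs7bp, Gnao1, Gng8 and Grk6.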

How the data were processed

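Dorsal root ganglion RNA was sequenced from 12 libraries, 3 in each of 4 groups taken from the labels. Per the labels' protocols, polyadenylated RNA went into QuantSeq 3′ libraries, sequenced from 1 end. Each deposited file gives counts for 23282 rows named by symbol (headed raw count, in 1 file raw data, per the file headers); 44 extra rows of repeated symbols were summed. The submitters' processing notes name mm10, Bowtie2 and bedtools. How strand, shared sequence and duplicates were handled is not stated there.

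Genes were kept by filterByExpr (minimum count 10, with the group), scaled by TMM (factors 0.914 to 1.07) and fitted in 1 quasi-likelihood model with a coefficient per group in edgeR 4.0.16 (limma 3.58.1, DESeq2 1.42.0, R 4.3.3). The 6 contrasts were tested with two-sided p-values, with Benjamini-Hochberg adjustment across the 15036 genes. SE is the log2 change divided by the root of F, and 95% intervals use the model's degrees of freedom. The fit was tested on simulated data, for injury averaged over the sexes. It recovered 29.9% of genes changed 1.5-fold, 74.6% of those changed 2-fold and 98.5% of those changed 4-fold. Genes not called can thus hold small changes. The fit of simulated data also called 12 genes that were simulated without a change. Replicates differed beyond sampling noise (chi-square per gene at least 8.34). Counting error alone sets the floors. Exon overlaps and shared runs came from GENCODE vM21, promoters from RefSeq GRCm38.p6.

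The RGS genes and the other lists were chosen with earlier results of these data known. All 10 RGS genes were described; from each other list the called genes, at most 4, and the gene with the largest mean CPM were named, of the cell type marker lists only examples; 1 marker is not reported here. In all, 21 alternatives were run. Same-numbered replicates were not taken as pairs.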

Additional observations from a re-analysis of the deposited data

How the results depend on the processing

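The direction of change with injury averaged over the sexes was kept by all 10 RGS genes under every alternative in which they were tested, with values of 1.19 to 1.59 for Rgs20 and -0.55 to -0.48 for Rgs10; these refits use the libraries that chose the set and are no support for it. Rgs3 (-0.36 to -0.31) passed in 8 of 20. It was lost with no filter, with the replicate block and in 10 of the 12 fits that left out 1 library. Rgs16 was not tested at a mean of 5 CPM. None of the 10 genes passed for the interaction or for either comparison of the sexes under any alternative. Numbers of genes called moved more. For injury averaged over the sexes the 980 genes became 2008 with limma-voom, 1848 without both libraries that stood apart and 626 to 1766 without 1 library, with 626 to 651 without any Female SNI library or Male sham replicate 1 and 1766 without Male SNI replicate 2. In females 435 became 777 with DESeq2, 1562 with limma-voom, 905 with only the groups compared, 986 without both and 155 to 1176 without 1 library, with 155 to 240 without any library of the female groups and 1176 without Male SNI replicate 2. In males 321 became 666, 693, 72 and 698 in that order, and 137 to 601 without 1 library, with 137 to 186 without Male SNI replicate 1 or any Male sham library and 601 without Male SNI replicate 3. Within 1 sex the call of Rgs10 was lost in 12 of 21 alternatives in females and in 7 of 21 in males, and that of Rgs3 in females in 12 of 21, among them the replicate block and each fit without 1 female library. Rgs20 in males passed in 5 of 21 (DESeq2, limma-voom, without Male SNI replicate 2, without Female sham replicate 2 and without both), and Rgs4 in females in 2. For Rgs20 in females it was 0 of 21. Without 1 library, averaged changes ran from 0.01 to 0.18 for Rgs2, -0.25 to -0.10 for Rgs8 and 0.09 to 0.19 for Rgs17. For males against females 6 became 14 in sham and 10 after SNI with DESeq2, and 13 after SNI without both, with 6 to 8 and 6 to 7 without 1 library. Deviations of same-numbered libraries correlated at -0.147 to 0.562 and 6 of 12 libraries were closest to their own number. The highest correlation was among the libraries numbered 2, which include both that stood apart. These values do not decide whether the numbers mark pairs, and the numbers were not used as pairs. With the replicate block 936 genes were called for injury averaged over the sexes, and the call of Rgs3 was lost. The cause of these moves was not tested. The counts of Rgs16 and Rgs20 limit what can be said of them.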
